A study of Homo sapiens with 24 samples.

Results

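The BCL2 family holds the proteins that keep or break the outer membrane of the mitochondrion, the step that commits most vertebrate cells to apoptosis. Anti-apoptotic members (BCL2, BCL2L1, MCL1 and BCL2A1) bind and hold the others. The effectors BAX and BAK1 form the pores that release cytochrome c, and the BH3-only members (BCL2L11, also called BIM; BID; PMAIP1, also called NOXA; BBC3, also called PUMA) sense stress and either block the anti-apoptotic members or switch on the effectors. These 10 genes were taken by symbol from the 48162 genes of the deposited count table, a choice by name and role and not by a threshold on these counts, though made with earlier results of these data known.

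RNA of PPC1, a prostate cancer cell line, was sequenced in 4 conditions from 6 independent runs of the experiment, giving 6 libraries each, numbered 1 to 6. Parental cells were untreated (UT) or had 5 µM LCL521, an inhibitor of acid ceramidase (ASAH1), for 5 hours before harvest (UT_LCL). Polyploid giant cancer cells (PGCC) received a radiation dose of 8 Gy on day 2, were harvested on day 5 and were kept back by a 20 micron filter, without (PGCC) or with (PGCC_LCL) the same LCL521 exposure. PGCC were both irradiated and selected by size, so the effects of these cannot be told apart, and all libraries come from a single cell line.

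Library totals of counted reads lay from 14835246 to 19906601. Levels are given in CPM, a gene's count scaled to the normalised size of its library. Among epithelial markers, the keratin gene KRT19 had 612 ± 84.1 CPM (SD, n = 6) in parental cells, KRT18 had 233 ± 35.1 CPM (SD, n = 6), and EPCAM was close to 0 at 0.203 ± 0.127 CPM (SD, n = 6). KRT8 lay from 56.4 to 87.1 CPM there and CDH1 only from 1.58 to 5.74 CPM. The keratins differed in direction in PGCC against parental cells, with log2 fold changes of 1.35 (KRT8), 0.42 (KRT19) and -0.46 (KRT18). The luminal prostate markers KLK3, KLK2 and TMPRSS2 had at most 3 counts in every library, so these markers did not show the prostate origin of the line. Summed fibroblast markers, mostly COL1A2, lay from 49.8 to 133 CPM in parental cells and 79.4 to 206 CPM in PGCC, and endothelial markers at no more than 1.34 CPM. The second principal component, with 16.5% of the variance, separated replicates 4 and 5 from the other libraries in all 4 conditions. The labels give no batch for them, and values of the members are given with and without them where a call or direction differed.

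The 250 bases before the transcription start are shown for the member with the largest rise in PGCC (PMAIP1), the member with the largest fall (BCL2L11), and the member whose direction depended on the replicates (BBC3). They come from RefSeq on build GRCh38.p14, read 5′ to 3′ along the gene, and capitals mark matches to the motifs searched.
PMAIP1 (chr18:59899746-59899995, plus strand): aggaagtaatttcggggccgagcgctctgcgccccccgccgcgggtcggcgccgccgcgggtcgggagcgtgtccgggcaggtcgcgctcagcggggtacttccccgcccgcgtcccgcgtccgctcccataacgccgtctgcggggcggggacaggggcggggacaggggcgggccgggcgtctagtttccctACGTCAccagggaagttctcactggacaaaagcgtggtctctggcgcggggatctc
BCL2L11 (chr2:111120664-111120913, plus strand): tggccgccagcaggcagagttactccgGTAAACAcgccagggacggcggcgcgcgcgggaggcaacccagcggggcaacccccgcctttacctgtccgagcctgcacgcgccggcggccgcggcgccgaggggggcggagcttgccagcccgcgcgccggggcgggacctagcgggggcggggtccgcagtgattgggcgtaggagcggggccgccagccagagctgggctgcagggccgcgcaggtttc
BBC3 (chr19:47232668-47232917, minus strand): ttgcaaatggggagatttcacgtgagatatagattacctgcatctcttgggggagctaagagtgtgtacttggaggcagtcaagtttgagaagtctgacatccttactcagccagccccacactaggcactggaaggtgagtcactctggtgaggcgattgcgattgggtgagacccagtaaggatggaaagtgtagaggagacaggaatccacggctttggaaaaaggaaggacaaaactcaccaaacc
Motifs were searched on both strands. The capitals in PMAIP1 are the core of a cAMP response element (TGACGT, here on the opposite strand), 56 to 51 bases before the start, which 7.1% of all 35116 RefSeq promoters of this length hold. The capitals in BCL2L11 are a FOXO motif (GTAAACA), 223 to 217 bases before the start, found in 2.98% of promoters. BBC3 held none of the 5 motifs searched, the others being an ATF4 element (TGATGNAA, in 3.14% of promoters), an NF-kappaB motif (in 1.73%) and an E2F motif (TTTNGCGC, in 1.51%). Outside these 3 genes, BCL2A1 held the ATF4 element and one of the 2 start sites of BCL2L1 the E2F motif. PMAIP1 and BCL2L11 differ in base composition from BBC3, with 72.8%, 76.8% and 49.2% G and C in these stretches. A match of letters is a description and not evidence of binding.

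Per gene length, so that genes can be compared, MCL1 had the highest level in parental cells, with a median of 123 CPM per kb (range 102 to 187, n = 6). MCL1 is a short-lived anti-apoptotic protein that PMAIP1 binds. BCL2L1, the gene of BCL-xL, followed at 74.9 CPM per kb (54.9 to 113) and overlapped with MCL1. The founding member BCL2 was at only 2.44 CPM per kb (1.60 to 2.78), below every library's value of either. The effector BAX stood at 40.0 CPM per kb (37.1 to 47.0), below every library's value of BCL2L1. BAK1, BID and PMAIP1 came next with overlapping ranges and medians of 23.8, 23.1 and 21.1 CPM per kb. BCL2L11 was lower, at 5.95 CPM per kb (4.99 to 7.33), without overlap with PMAIP1 above it or BCL2 below it. BBC3 had a median of 1.01 CPM per kb, but its range (0.711 to 16.9) took in those of BCL2 and BCL2L11. BCL2A1 was at the bottom, with a median of 0.

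**Figure D1:**
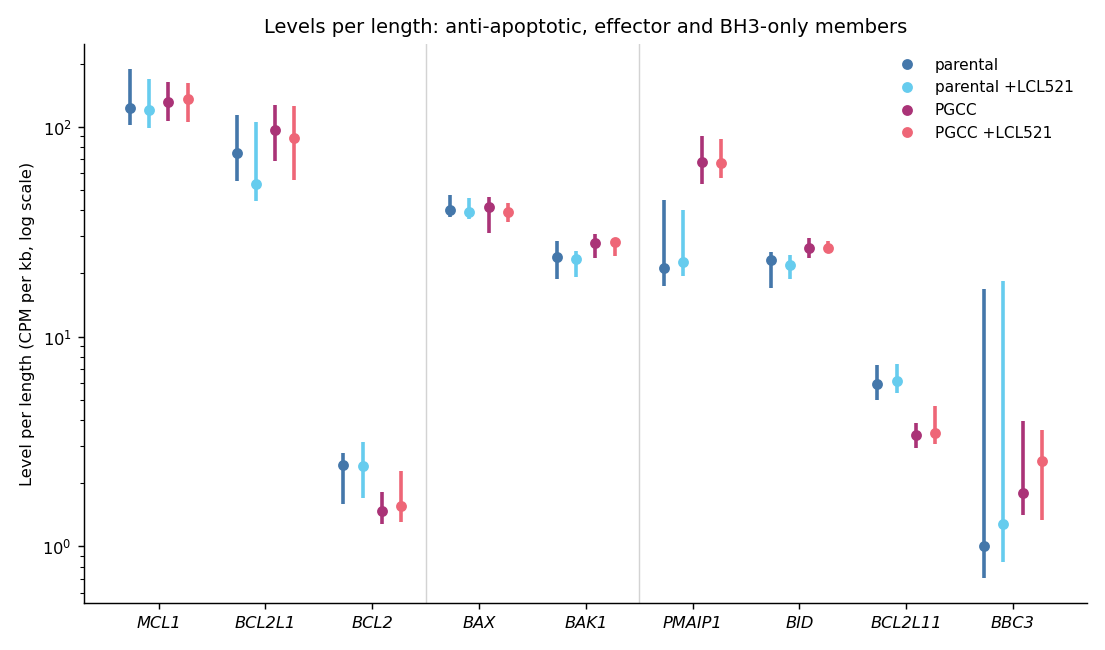
Level of 9 members per length (CPM per kb, log axis) in each condition; points are medians of 6 libraries and lines run from the lowest to the highest library. PMAIP1 moves from a median of 21.1 in parental cells to 67.6 in PGCC, above BAX, while MCL1 and BCL2L1 stay at the top.

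In PGCC, MCL1 (131 CPM per kb) and BCL2L1 (96.2) again led with overlapping ranges. PMAIP1 now came next, at 67.6 CPM per kb (53.5 to 89.8). It overlapped with BCL2L1 and lay above every library's value of BAX, which was at 41.3 (31.0 to 46.0). BAK1 and BID shared a level (27.9 and 26.5 CPM per kb) below BAX. BCL2L11, BBC3 and BCL2 closed the order at 3.40, 1.80 and 1.48 CPM per kb, each overlapping with the next, above BCL2A1. With LCL521 the order of the 10 medians in PGCC was the same. In parental cells LCL521 changed only the places of PMAIP1 and BID, whose ranges overlapped.

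The first comparison asked which members differ between PGCC and parental cells. Of the 9 members that passed the filter on low counts, 4 had an adjusted p under 0.05 in edgeR's quasi-likelihood test: PMAIP1 and BID rose, and BCL2L11 and BCL2 fell. That is 44.4% of the members tested, beside 47.4% of all 13812 genes tested, which is a share close to the background. Counted by direction, 2 of 9 members rose and 2 of 9 fell, beside 23.1% and 24.3% of all genes. The median log2 fold change of the 9 members was 0.0019, and that of all genes tested was -0.028. Scaling by library totals moved the calls over all genes from 3186 higher and 3355 lower to 3820 and 2521. The libraries are bulk RNA, so fewer cells with a transcript and less of it per cell cannot be told apart. Counts per gene also do not separate the splice forms of BCL2L1, MCL1 and BCL2L11, some of which act in opposite directions.

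**Figure D2:**
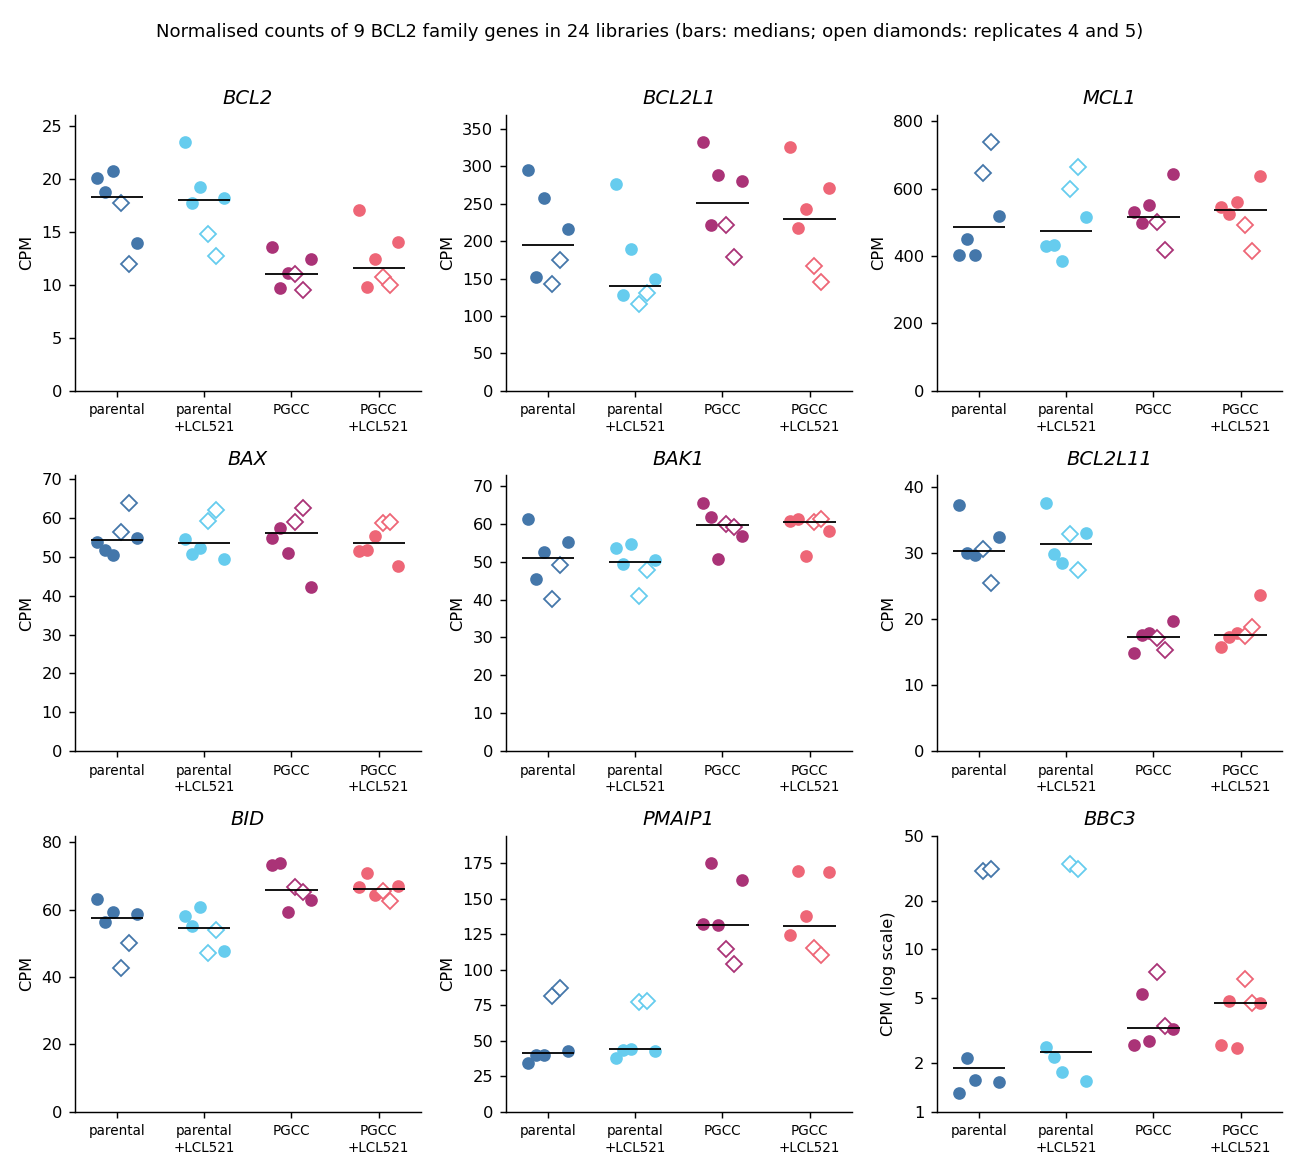
CPM of 9 members in each of the 24 libraries, with medians as bars; BBC3 is on a log axis and the others start at 0, and open diamonds are replicates 4 and 5. All PGCC libraries lie above all parental ones for PMAIP1 and below them for BCL2L11, while BBC3 and MCL1 show replicates 4 and 5 apart from the other parental libraries.

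Among the anti-apoptotic members, BCL2 fell in PGCC. Its gene lies on chromosome 18 from 60790579 to 60987361 (hg19, as all gene coordinates here, minus strand). It had 11.9 to 20.8 CPM with a median of 18.2 in parental cells and 9.52 to 13.5 CPM with a median of 11.0 in PGCC. The ranges overlapped through parental replicate 5 and PGCC replicates 1 and 6, but PGCC was lower in 6 of 6 same-numbered pairs, as 24.7% of all genes were. The log2 fold change was -0.61 ± 0.15 (SE, adjusted p = 0.0038), or 0.656 times the parental level. It was -0.64 (adjusted p = 0.0025) without replicates 4 and 5 and -0.53 (adjusted p = 0.059) in them alone. BCL2L1 (chromosome 20, 30252255 to 30311792) had 143 to 295 CPM with a median of 196 in parental cells and 178 to 332 CPM with a median of 251 in PGCC. These ranges overlapped widely and replicates differed within each condition, yet PGCC was higher in 6 of 6 pairs, as 25.5% of all genes were. The log2 fold change was 0.31 ± 0.19 (SE, adjusted p = 0.2) and did not pass, whereas with the replicate number as a block it was 0.33 ± 0.087 (SE, adjusted p = 0.011) and passed. With the block 6 of the 9 members passed, beside 56.2% of all genes: 4 rose (27.9% of all genes) and 2 fell (28.3%).

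MCL1 (chromosome 1, 150547032 to 150552066) had 402 to 737 CPM with a median of 485 in parental cells and 419 to 645 CPM with a median of 517 in PGCC. Its log2 fold change over all replicates was 0.0019 (95% interval -0.34 to 0.34, adjusted p = 0.99), which hides opposite differences in the replicates, given below. The fourth anti-apoptotic gene, BCL2A1 (chromosome 15, 80253231 to 80263788), known as a target of NF-kappaB and highest in blood cells, did not pass the filter. Parental libraries held 3 counts in all, in 2 of 6 libraries, and PGCC libraries 23 counts in 5 of 6. The ratio was 7.19 (95% exact interval 2.17 to 37.4, counting error only), and the exact permutation test over all divisions of the 12 CPM values gave p = 0.017 (two-sided, for this gene alone). With LCL521 there were 0 counts in parental cells against 26 in PGCC, which had a count in all 6 libraries. The ratio was 8.27 when 3 counts over the 6 parental libraries are put in place of 0, an arbitrary choice. From 26 against 0 counts, the exact lower 95% limit of the ratio, for counting error only, was 6.26. The summed leukocyte markers (PTPRC, CD3E, CD14, ITGAM and LYZ) also differed, at 0.464 to 2.97 CPM in parental cells and 3.38 to 4.83 CPM in PGCC, with CD3E at no more than 3 counts in every library. PTPRC was the single leukocyte marker to pass the filter, which it did through its PGCC libraries. It rose by a log2 fold change of 1.39 (adjusted p = 0.016). Its level was 2.20 and 2.74 CPM in parental replicates 4 and 5 and at most 0.722 CPM in the other parental libraries. Its log2 fold change was 2.63 (adjusted p = 6.5e-06) without these replicates and 0.17 (adjusted p = 0.65) in them alone. The part of these markers in the BCL2A1 result was not tested.

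Over all 6 replicates and without the block, neither effector passed. BAX (chromosome 19, 49458072 to 49465055), which moves from the cytosol to the mitochondrion on activation, had 50.3 to 63.8 CPM with a median of 54.4 in parental cells and 42.2 to 62.5 CPM with a median of 56.1 in PGCC. Only PGCC replicate 6 lay below the parental range, and the log2 fold change was -0.011 with an interval of -0.22 to 0.20 (adjusted p = 0.94). Scaling by library totals turned the sign, to 0.085. BAK1 (chromosome 6, 33540329 to 33548019), which sits in the mitochondrial membrane, had 40.0 to 61.1 CPM with a median of 50.9 in parental cells and 50.8 to 65.5 CPM with a median of 59.6 in PGCC. PGCC was higher in 5 of 6 pairs, with overlapping ranges. The log2 fold change was 0.23 ± 0.10 (SE, adjusted p = 0.079) and did not pass, and with the block it was 0.24, just past the threshold (adjusted p = 0.0498). BAK1 was at 0.15 (adjusted p = 0.25) without replicates 4 and 5, and in them alone it rose by 0.42 (adjusted p = 0.023). It also passed with library totals (edgeR, 0.32 (adjusted p = 0.013)), with at least 10 counts in every library (0.27 (adjusted p = 0.041)) and in the fit of all 24 libraries (0.22 (adjusted p = 0.046)).

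The BH3-only members held the largest rise and the largest fall that passed. PMAIP1 (chromosome 18, 57567180 to 57571538), a p53 and ATF4 target whose product neutralises MCL1, had 34.1 to 87.5 CPM with a median of 41.1 in parental cells and 104 to 175 CPM with a median of 132 in PGCC. Every PGCC library lay above every parental library, as for 14.2% of all genes. The log2 fold change was 1.34 ± 0.24 (SE, adjusted p = 0.00049), or 2.53-fold. BCL2L11 (chromosome 2, 111876955 to 111926024), whose product binds all the anti-apoptotic members, had 25.4 to 37.3 CPM with a median of 30.3 in parental cells and 14.9 to 19.7 CPM with a median of 17.3 in PGCC. Here every PGCC library lay below every parental one, as for 12.3% of all genes. It fell by 0.85 on the log2 scale (SE 0.11, adjusted p = 2.4e-05) to 0.556 times the parental level. Both changes kept their direction and passed in all 19 alternative settings, left-out replicates included.

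BID (chromosome 22, 18216906 to 18257536), which links death receptors to mitochondria after caspase cleavage, had 42.6 to 63.1 CPM with a median of 57.5 in parental cells and 59.3 to 73.7 CPM with a median of 66.0 in PGCC. PGCC was higher in 5 of 6 pairs and level in replicate 3, and the ranges overlapped. The rise was small, with a log2 fold change of 0.29 ± 0.10 (SE, adjusted p = 0.026). It no longer passed without the filter on low counts (edgeR, adjusted p = 0.08), without replicate 2 (edgeR, adjusted p = 0.083), without replicate 4 (adjusted p = 0.055) or without replicate 5 (adjusted p = 0.062), while its direction stayed. It was at 0.20 (adjusted p = 0.074) without replicates 4 and 5 together and rose by 0.51 (adjusted p = 0.0063) in them alone. BBC3 (chromosome 19, 47724081 to 47736023), whose product binds all the anti-apoptotic members and is known as a p53 target, had 1.31 to 31.1 CPM with a median of 1.85 in parental cells and 2.59 to 7.26 CPM with a median of 3.30 in PGCC. The parental values fell into separate levels, and the log2 fold change of -1.47 ± 0.80 (SE, adjusted p = 0.14) did not pass.

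The parental level of BBC3 was 1.31, 2.15, 1.56 and 1.52 CPM in replicates 1, 2, 3 and 6, but 30.3 and 31.1 CPM in replicates 4 and 5. With LCL521 it was 2.52, 2.18, 1.76 and 1.55 CPM against 33.8 and 31.2 CPM. Parental replicates 4 and 5 thus stood apart in both series of libraries. In PGCC the values were 2.59, 5.33, 2.74 and 3.23 CPM against 7.26 and 3.38 CPM, without such a gap. Without replicates 4 and 5, BBC3 rose in PGCC by a log2 fold change of 1.10 ± 0.28 (SE, adjusted p = 0.0044). In replicates 4 and 5 alone, a division made after the data were seen, it fell by 2.53 (SE 0.27, adjusted p = 8.3e-05). The difference between these 2 sets of replicates was not tested. Without replicates 4 and 5, 5 of 9 members passed (54.6% of all genes), 3 upwards (27.7%) and 2 downwards (26.9%). In replicates 4 and 5 alone, 6 of 9 members passed (45.7% of all genes), 3 upwards (23.6%) and 3 downwards (22.1%).

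PMAIP1 and MCL1 were also higher in parental replicates 4 and 5, but differed from BBC3 in PGCC. In PGCC, PMAIP1 was lower in these replicates, at 114 and 104 CPM against 131 to 175 CPM, as 18.7% of all genes were. With LCL521, PMAIP1 and MCL1 in PGCC were each below the other 4 libraries there, as 20.4% of all genes were. Parental PMAIP1 was 34.1 to 42.5 CPM in replicates 1, 2, 3 and 6 and 81.8 and 87.5 CPM in replicates 4 and 5, and its log2 fold change was 1.97 (adjusted p = 3.7e-08) without those replicates and 0.37 (adjusted p = 0.018) in them alone. It rose in both, by 3.91-fold and 1.29-fold. Parental MCL1 was 402 to 519 CPM in the 4 replicates and 646 and 737 CPM in replicates 4 and 5. It rose by 0.35 (adjusted p = 0.012) in the former, in 4 of 4 pairs, and fell in the latter by 0.59 (adjusted p = 0.005), in 2 of 2. Of the 9 members, MCL1, BAX, PMAIP1 and BBC3 had both parental replicates above the other 4 libraries, as 25.2% of all genes did, and BID had both below, as 25.5% of all genes did. BCL2, BCL2L1, BAK1 and BCL2L11 showed no such gap in parental cells without LCL521. For BCL2L11 the fold change was -0.87 without these replicates and -0.79 in them alone. In parental cells with LCL521, BCL2 and BAK1 had both replicates below the other 4 libraries, as 23.0% of all genes did. BCL2L1 had both below in PGCC without and with LCL521, as 18.7% and 20.4% of all genes did.

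**Figure D3:**
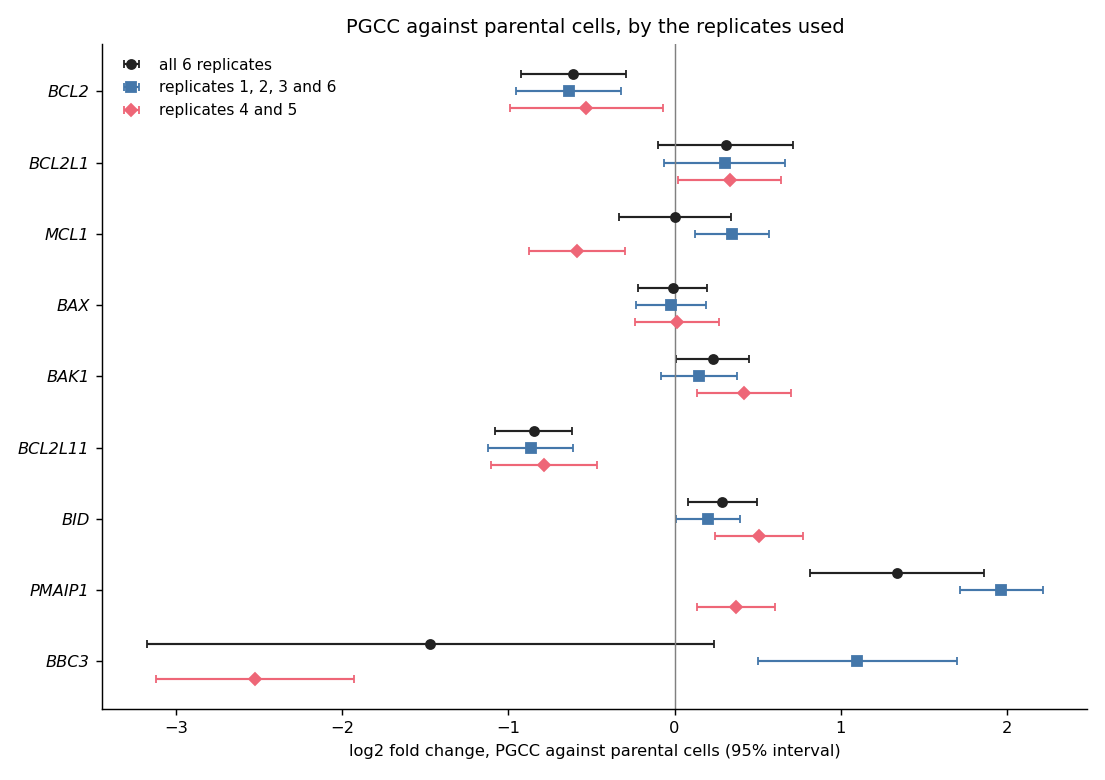
Log2 fold change of PGCC against parental cells with 95% intervals, from all 6 replicates (circles), replicates 1, 2, 3 and 6 (squares) and replicates 4 and 5 (diamonds). BBC3 goes from 1.10 to -2.53 and MCL1 from 0.35 to -0.59 between the sets, while BCL2L11 and BCL2 stay below 0 in each.

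Known targets of ATF4 and CHOP, factors of the integrated stress response, moved with these replicates. Of 12 genes on that list, 11 were above the other 4 parental libraries in both replicates and none was below. CHAC1, which degrades glutathione, was at 100.3 and 109.8 CPM there and at 1.51 to 3.05 CPM in the others (CHAC1 was named after its values were seen). Of 21 p53 targets kept by the filter, 8 were above and 6 below. Beside the counts of both lists, 25.2% of all genes were above and 25.5% below. SESN2 is on both lists and was above. The part of either list in the values of BBC3, PMAIP1 and MCL1 was not tested. Between PGCC and parental cells, 23.1% of all genes rose and 24.3% fell, the shares to set beside the list counts here and below. They were 27.7% and 26.9% without replicates 4 and 5, and 23.6% and 22.1% in them alone. Of 12 ATF4 and CHOP targets, 5 fell and 1 rose, with a median of -0.78, which was -0.15 with the block. The counts were 6 higher and 5 lower calls without replicates 4 and 5 (median 0.10), and in them alone none rose and 11 fell (median -1.76). The falls were led by ASNS, the asparagine synthetase, at -2.23 (adjusted p = 2.0e-05), and TRIB3, a pseudokinase of the stress response, at -2.04 (adjusted p = 0.0029). ATF3, a stress-induced repressor, rose by 2.03 (adjusted p = 0.016), but fell by 0.41 (adjusted p = 0.031) in replicates 4 and 5 alone, and missed the threshold without replicate 2, 3 or 6 (edgeR, adjusted p = 0.057, 0.052 and 0.071). Of the 20 p53 targets tested, 5 rose and 5 fell, with a median of -0.072, which was 0.10 with the block. In replicates 1, 2, 3 and 6, 9 rose and 6 fell (median 0.33), and in replicates 4 and 5 alone 5 rose and 7 fell of 21 tested (median -0.29). CDKN1A, the cell cycle inhibitor p21, rose by 3.74 (adjusted p = 2.3e-06) and DDB2, a DNA repair protein, by 1.73 (adjusted p = 6.8e-06), whereas the largest falls were those of ZMAT3, at -1.11 (adjusted p = 5.0e-05), and SESN1, at -0.57 (adjusted p = 0.0019).

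Ratios between members within a library remove differences in scaling. The log2 ratio of MCL1 to PMAIP1 per length was 2.33 ± 0.26 (SD, n = 6) in parental cells and 0.94 ± 0.22 in PGCC. The level of MCL1 per length was thus 5.04 times that of PMAIP1 in parental cells and 1.92 times in PGCC, and the ranges (1.97 to 2.60 and 0.50 to 1.12) did not overlap. Replicates 4 and 5 were the lowest of the parental libraries in this ratio. BCL2L1 to BAX was 0.92 ± 0.48 in parental cells and 1.26 ± 0.48 in PGCC, with overlapping ranges. MCL1 to BCL2L1 ranged from -0.15 to 1.58 in parental cells and from 0.087 to 0.64 in PGCC, the parental extremes being replicate 1 and replicate 4. No test was made on these ratios.

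**Figure D4:**
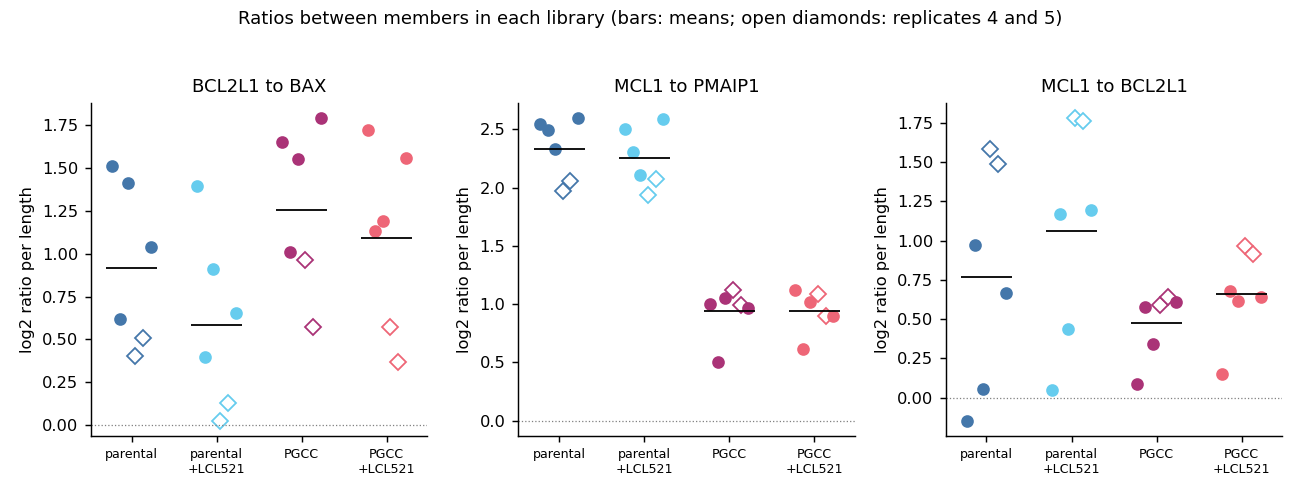
Log2 ratio of levels per length in each library for 3 pairs of members, with means as bars and replicates 4 and 5 as open diamonds; 0 means equal levels. MCL1 to PMAIP1 is at or above 1.94 in all 12 parental libraries and at or below 1.12 in all 12 PGCC libraries.

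Of 13 further genes of the BCL2 family, 9 were tested, and 1 rose and 3 fell in PGCC, beside 23.1% and 24.3% of all genes. BCL2L12, an atypical member reported in both nucleus and cytoplasm, rose from 41.6 ± 6.16 CPM (SD, n = 6) to 103 ± 7.80 CPM (SD, n = 6). Its ranges did not overlap, as for 14.2% of all genes, and the log2 fold change was 1.32 ± 0.10 (SE, adjusted p = 2.8e-07). HRK, a BH3-only gene, fell from a low level of 2.81 ± 0.701 CPM (SD, n = 6) to 1.12 ± 0.565 CPM (SD, n = 6). On the log2 scale this was -1.31 (adjusted p = 0.0029). BOK, an effector-like member, fell by 0.52 (adjusted p = 0.00086), and missed the threshold in replicates 4 and 5 alone, at -0.26 (adjusted p = 0.06). BMF, a BH3-only gene, fell by 1.01 (adjusted p = 0.021), but was -0.31 (adjusted p = 0.34) without replicates 4 and 5, and its parental level in those replicates was 10.6 and 8.27 CPM against 2.56 to 5.05 CPM in the others. Its call was also lost without replicate 4 or 5 singly (edgeR, adjusted p = 0.095 and 0.079). Among the BH3-only genes that passed over all 6 replicates, PMAIP1 and BID thus rose, and BCL2L11, HRK and BMF fell. BBC3 and the remaining BH3-only genes did not pass, and the calls of BID and BMF depended on the replicates used.

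Downstream of the family, 5 of 15 caspase and apoptosome genes rose and 4 fell, beside 23.1% and 24.3% of all genes. The median was 0.16. Leaving out replicates 4 and 5, 6 rose and 4 fell (median 0.0062), and in them alone 6 rose and 1 fell (median 0.27). APAF1, the scaffold that cytochrome c assembles into the apoptosome, rose by 1.52 (adjusted p = 1.3e-06). CASP10, an initiator caspase of death receptors, was at 2.34 (adjusted p = 0.0018), but with only 0 to 15 counts per parental library. PGCC libraries held 26 to 66 counts of CASP10, and through them it passed the filter on low counts. DFFB, the nuclease that cuts DNA in apoptosis, fell by 1.48 (adjusted p = 5.7e-06) and CASP2 by 0.52 (adjusted p = 0.0028), the latter with -0.027 (adjusted p = 0.84) in replicates 4 and 5 alone. Of 5 inhibitor of apoptosis genes tested, 3 rose and 1 fell, with a median of 0.59. The counts were 3 higher and 1 lower calls without replicates 4 and 5 (median 0.91), and in them alone 2 rose and 1 fell (median -0.20). BIRC3 (cIAP2) rose by 4.31 (adjusted p = 3.0e-05) and BIRC5 (survivin, which also acts in mitosis) rose 5.66-fold (adjusted p = 3.5e-06), while XIAP, a direct inhibitor of caspases, fell by 0.50 (adjusted p = 0.014), narrowly missing the threshold without replicate 5 (edgeR, adjusted p = 0.050). Of 9 death receptor genes tested, 2 rose and 2 fell, beside 23.1% and 24.3% of all genes, with a median of -0.081. In replicates 1, 2, 3 and 6, 3 rose and 3 fell (median -0.10), and in replicates 4 and 5 alone 2 rose and 3 fell of 10 tested (median -0.060). The receptor FAS rose by 1.57 (adjusted p = 2.7e-06) and CFLAR, which blocks caspase-8, by 0.58 (adjusted p = 0.012), though CFLAR was at -0.017 (adjusted p = 0.94) in replicates 4 and 5 alone and lost its call without replicate 1, 3 or 6 (edgeR, adjusted p = 0.051, 0.062 and 0.054). TNFRSF1A fell by 0.80 (adjusted p = 3.2e-05) and RIPK1 by 0.53 (adjusted p = 0.0027). Of 7 genes tested around the turnover of MCL1 protein, among them HUWE1, USP9X and FBXW7, none passed (edgeR, 1 at an unadjusted p under 0.05), and 2 did with the block, 1 in each direction. Of 8 mitochondrial partners of the family, 2 fell, MFN1 and DNM1L, by 0.38 and 0.27 (adjusted p = 0.0026 and 0.0045), which fuse and divide mitochondria.

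Known NF-kappaB targets, a list without BCL2A1, rose in 12 of 14 genes tested and fell in none over all 6 replicates, with a median of 1.22. Leaving out replicates 4 and 5, 13 rose and none fell (median 1.67), and in them alone 7 rose and 2 fell (median 0.60). The largest rises were those of IL8, at 5.05 (adjusted p = 9.2e-06), and of BIRC3 as given above. In replicates 4 and 5 alone these were 2.45 (adjusted p = 0.00024) and 2.20 (adjusted p = 0.001), against 5.76 and 4.69 in the other 4. In PGCC, 12 of these 14 genes were lower in replicates 4 and 5 than in the other 4 libraries, as 18.7% of all genes were. Of 10 targets of FOXO, transcription factors for which BCL2L11 is a known target, 5 rose and 1 fell, with a median of 0.50. The counts were 7 higher and no lower calls without replicates 4 and 5 (median 0.91), and in them alone 3 rose and 3 fell (median 0.042). KLF6 rose by 1.46 (adjusted p = 2.0e-06) and PINK1 by 1.43 (adjusted p = 1.5e-07), and CITED2 fell by 0.46 (adjusted p = 0.016). CITED2 was at -0.15 (adjusted p = 0.2) without replicates 4 and 5, and missed the threshold without replicate 4 or 5 singly (edgeR, adjusted p = 0.063 and 0.067). BCL2L11, not on that list, fell.

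Under LCL521, PGCC were compared with parental cells that had the same exposure. None of these 12 libraries is in the first comparison, but they come from the same 6 runs. Libraries of equal number without and with LCL521 were alike, so this is not an independent repeat. Of the 9 members tested, 5 passed, beside 48.9% of all 13818 genes: PMAIP1, BID and BAK1 rose, beside 25.0% of genes that rose, and BCL2L11 and BCL2 fell, beside 23.9% that fell. PMAIP1 had 37.6 to 77.9 CPM with a median of 43.9 in parental cells and 110.3 to 169.8 CPM with a median of 131 in PGCC. Its ranges again did not overlap, as for 14.7% of all genes, and its log2 fold change was 1.38 ± 0.20 (SE, adjusted p = 7.3e-05). BCL2L11 had 27.4 to 37.5 CPM with a median of 31.4 and 15.7 to 23.6 CPM with a median of 17.6. There was no overlap, as for 13.1% of all genes, and the log2 fold change was -0.74 ± 0.11 (SE, adjusted p = 8.9e-05). BCL2 averaged 17.7 ± 3.72 CPM (SD, n = 6) and 12.3 ± 2.83 CPM (SD, n = 6), with overlapping ranges. It fell by 0.49 (adjusted p = 0.024), a call lost without replicate 2 (adjusted p = 0.080) or replicate 3 (adjusted p = 0.075). In replicates 4 and 5 alone it was -0.40 (adjusted p = 0.063).

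BID rose by 0.33 (adjusted p = 0.0029) with no overlap of the ranges, as for 14.7% of all genes. BAK1 rose by 0.28 (adjusted p = 0.011) in 5 of 6 pairs. For BAK1 the value was 0.19 (adjusted p = 0.084) without replicates 4 and 5. BCL2L1 was higher in 6 of 6 pairs, as 25.3% of all genes were. It was at 0.50 (adjusted p = 0.074) and passed with the block, at 0.51 (adjusted p = 0.0016). It also passed with library totals (edgeR, adjusted p = 0.048), without replicate 1 (adjusted p = 0.024), without replicates 4 and 5, at 0.55 (adjusted p = 0.029), and in those alone, at 0.36 (adjusted p = 0.013). With the block 6 of 9 members passed, beside 56.3% of all genes: 4 rose (29.5%) and 2 fell (26.8%). Without replicates 4 and 5, 7 of 9 passed, beside 52.5%, with 5 higher (27.9%) and 2 lower (24.6%), and in them alone 7 of 9 passed, beside 51.4%, with 4 higher (26.3%) and 3 lower (25.1%). MCL1 was at 0.094 (adjusted p = 0.6), BAX at 0.0051 (adjusted p = 0.97) and BBC3 at -1.49 (adjusted p = 0.12). As without LCL521, BBC3 was opposite in the sets of replicates, at 0.89 (adjusted p = 0.017) without replicates 4 and 5 and -2.52 (adjusted p = 1.2e-06) in them alone, and so was MCL1, at 0.39 (adjusted p = 0.0058) and -0.47 (adjusted p = 0.0028). Outside the members, BCL2L12 was at 1.34 (adjusted p = 5.5e-08), HRK at -1.18 (adjusted p = 0.00088), BOK at -0.52 (adjusted p = 4.6e-05) and BMF at -1.02 (adjusted p = 0.02), the last again losing its call without replicate 4 or 5 (edgeR, adjusted p = 0.065 and 0.076).

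With LCL521 few members were called. Without the block no member passed in parental cells (0 at an unadjusted p under 0.05), where 0 of 13277 genes passed (0.0%, where 71 had an unadjusted p under 0.05, and DESeq2 called 0). None passed in PGCC either (0 at an unadjusted p under 0.05), where 1 of 14151 genes did (0.00707%, with 218 at an unadjusted p under 0.05 and 6 calls by DESeq2), INSIG1, a gene of sterol sensing outside the lists that is named because it was the single call. With the replicate number as a block, 1 of 9 members passed in each population, BCL2L1 both times and lower both times. All genes passed at 0.866% in parental cells (0.346% lower) and at 1.65% in PGCC (1.08% higher, 0.572% lower).

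In parental cells BCL2L1 went from 295, 152, 257, 143, 174 and 217 CPM in replicates 1 to 6 to 276, 128, 189, 116, 130.1 and 149 CPM with LCL521. It was lower in 6 of 6 pairs, as 4.49% of all genes were, though the ranges overlapped. The log2 fold change was -0.32 ± 0.23 (SE, adjusted p = 1), and with the block it was -0.33 ± 0.050 (SE, adjusted p = 0.0071), a fall to 0.793 times the level without LCL521. In PGCC it went from 332, 222, 289, 221, 178 and 280.5 CPM to 326, 217, 243, 167, 146 and 271 CPM. Again 6 of 6 pairs were lower, as for 4.14% of all genes. The log2 fold change was -0.15 ± 0.18 (SE, adjusted p = 1), and -0.17 ± 0.042 (SE, adjusted p = 0.036) with the block. The exact test over 64 sign changes of the paired differences gave p = 0.031 in each population, the smallest value that 6 pairs allow (two-sided, for this gene alone). Without replicates 4 and 5 the blocked values were -0.32 (adjusted p = 0.13) in parental cells and -0.091 (adjusted p = 0.46) in PGCC, and neither passed.

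**Figure D5:**
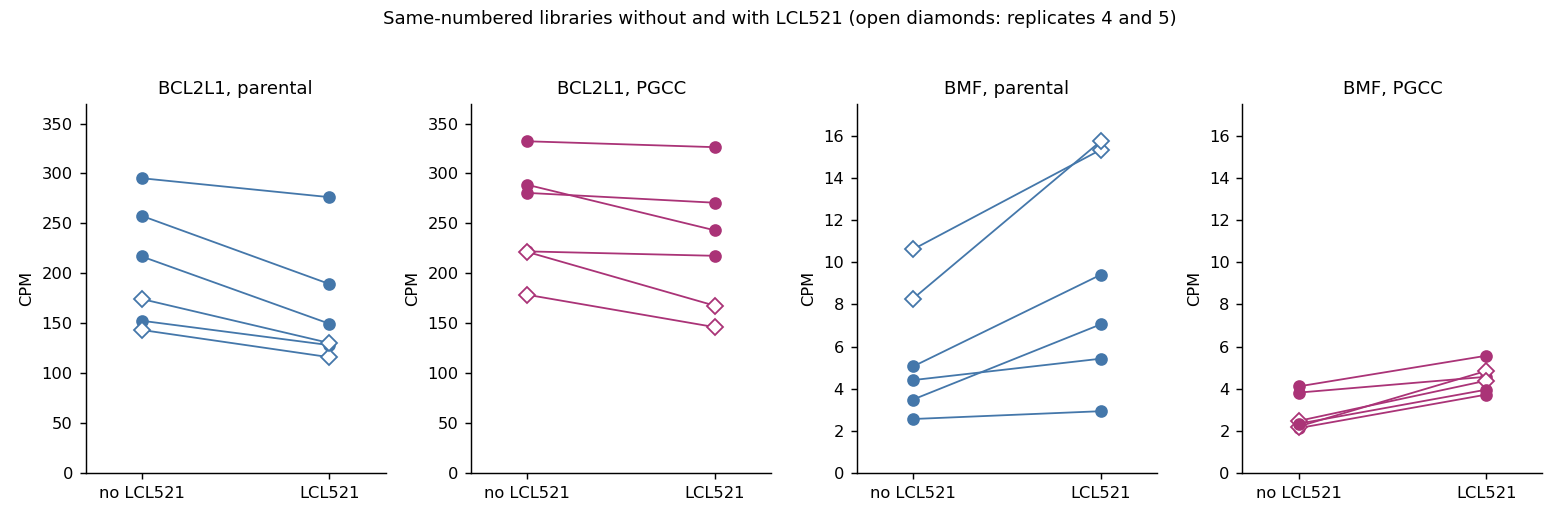
CPM of BCL2L1 and of BMF in same-numbered libraries without and with LCL521 (lines join a pair; open diamonds are replicates 4 and 5; axes start at 0). Each of the 12 lines falls for BCL2L1 and rises for BMF.

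BMF, the BH3-only gene named above, was the single one of the further family genes to pass with the block. It is given here because it passed, after its values were seen. In parental cells it went from 3.48, 4.41, 5.05, 10.6, 8.27 and 2.56 CPM in replicates 1 to 6 to 7.05, 5.42, 9.40, 15.3, 15.7 and 2.93 CPM with LCL521. Its log2 fold change was 0.70 ± 0.42 (SE, adjusted p = 1) without the block and 0.69 ± 0.11 (SE, adjusted p = 0.009) with it. In PGCC the values were 2.13 to 4.11 CPM with a median of 2.40 without LCL521 and 3.72 to 5.56 CPM with a median of 4.47 with it, and the log2 fold change was 0.67 ± 0.19 (SE, adjusted p = 1) without the block and 0.69 ± 0.13 (SE, adjusted p = 0.0058) with it. Without replicates 4 and 5 the blocked values were 0.66 (adjusted p = 0.18) and 0.54 (adjusted p = 0.15), and neither passed. BMF was higher in 6 of 6 pairs in each population, as 3.24% of all genes were in parental cells and 3.68% in PGCC.

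For the other 8 members the blocked log2 fold changes with LCL521 lay between -0.042 and 0.14 in parental cells and between -0.0091 and 0.13 in PGCC, and the smallest adjusted p-values were 0.62 and 0.44. Their 95% intervals lay within -0.13 and 0.37 in parental cells and -0.17 and 0.35 in PGCC. Without the block the intervals were wider, within -2.17 and 2.37 in parental cells and -0.55 and 0.69 in PGCC. BBC3 was higher with LCL521 in 6 of 6 parental pairs, as 3.24% of all genes were, at 0.14 (adjusted p = 0.62) with the block. The interaction of LCL521 with population passed for no member (0 at an unadjusted p under 0.05), beside 0.0% of 14555 genes (edgeR, with or without the block, 60 genes having an unadjusted p under 0.05 without it). For BCL2L1 it was 0.17 on the log2 scale (95% interval -0.48 to 0.83, or -0.10 to 0.43 with the block), so a difference in its response between PGCC and parental cells was not detectable. For the other 8 members the 95% intervals of the interaction lay within -2.45 and 2.38, and within -1.69 and 1.60 with the block.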

How the data were processed

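The authors deposited read counts per gene for 24 libraries, without normalization; the submitters' processing notes name CASAVA, STAR, HTSeq, DESeq2 and build hg19. Strand-specific counting is not given in the sources used here. RNA-seq counts were analysed in R 4.3.3 with edgeR 4.0.16. filterByExpr (minimum count 10, minimum total count 15) removed low genes and TMM gave scaling factors. Each pair of conditions was fitted on its own 12 libraries with the quasi-likelihood test and Benjamini-Hochberg adjustment over all genes (threshold 0.05). A standard error is the absolute log2 fold change over the root of its F statistic. Every adjusted p in the text is from this test. The interaction was fitted on all 24 libraries.

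The experiment was done 6 independent times with the conditions harvested in parallel, and numbers were found to pair the libraries only in part. Deviations from the condition mean, between libraries of equal number, correlated at 0.24 to 0.41 (PGCC against UT), 0.17 to 0.44 (with LCL521), 0.46 to 0.81 (LCL521 in parental cells) and 0.39 to 0.62 (LCL521 in PGCC) across genes. For LCL521 within a population, each library was most like the one of its own number. PGCC replicate 4 and, with LCL521, PGCC replicates 3, 5 and 6 were more like another parental library. Pairs and blocks between PGCC and parental cells are thus less certain. The gap of replicates 4 and 5 also enters these correlations, and its part was not tested. The labels do not state that a number marks a run. Exact permutation tests used log2 CPM with a prior count of 2, or CPM for BCL2A1. The members and gene lists were chosen with earlier results of these data known. All 10 members are named, and from each other list at most the 2 largest rises and 2 largest falls past the threshold, with every further family gene that passed. CHAC1, INSIG1, HUWE1, USP9X, FBXW7 and, under LCL521, BMF, CCL20, NFKBIA, FBXO32, GDF15, IL8 and BIRC3 fall outside this rule, as do the cell type markers. MARCH5 and PECAM1 were not matched, and 3 cell type markers are not reported here. DESeq2 1.42.0, limma-voom (limma 3.58.1), other factors and filters, the replicate block and left-out replicates were alternatives. The procedure was tested on simulated counts with few changed genes and without the gap of replicates 4 and 5. RefSeq promoters were matched by symbol for 9 of 10 members, all but MCL1.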

Additional observations from a re-analysis of the deposited data

Results flagged for a closer look

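In 39 groups of 6 libraries tested over the members (chance alone flags about 1 in 20 groups), 2 libraries lay far from the others of their group on the log2 CPM scale. BCL2A1 was at 0 CPM in PGCC replicate 1, while the other 5 PGCC libraries held 0.151 to 0.303 CPM, or 3 to 6 counts. BAK1 was lowest in PGCC_LCL replicate 3, at 51.4 CPM, where the other 5 libraries held 58.0 to 61.3 CPM. BAK1 was also lowest in replicate 3 among the PGCC libraries without LCL521, at 50.8 CPM.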

How the results depend on the processing

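Over 19 alternatives each, PMAIP1 and BCL2L11 kept direction and call in both PGCC comparisons, as BID did under LCL521. BCL2L1, BAK1, BCL2 and BID kept their direction everywhere but not always their call. With the block, 115 genes passed for LCL521 in parental cells and 234 in PGCC, and 168 and 193 with the block in DESeq2; each time 1 member did. Without replicates 4 and 5 the block gave 3 and 129 genes. For LCL521 in PGCC, DESeq2 called 6 genes, while limma-voom, all 24 libraries in one fit, leaving out replicates 4 and 5 and using only those gave 0, and leaving out a single replicate gave 0 to 1. In PGCC against UT, 7 of 9 members passed with the block and without replicates 4 and 5, beside 64.3% of all genes. Over all 6 replicates the block changed no call of a member beyond those of BCL2L1 and BAK1 in the text. Without replicates 4 and 5, BID in PGCC against UT passed with the block but not without it.

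Signs that turned were mostly of values near 0. MCL1 in PGCC against UT was -0.00046 with upper quartile factors, -0.019 without the filter, -0.0047 in the fit of 24 libraries, -0.083 to 0.19 with a replicate left out and -0.59 in replicates 4 and 5 alone (-0.47 with LCL521). BAX was 0.00090 with DESeq2, 0.00064 with RLE factors, 0.085 with library totals, 0.025 with at least 10 counts in every library, -0.047 to 0.049 with a replicate left out and 0.016 in replicates 4 and 5 alone. With LCL521 BAX was -0.0094 (DESeq2 and RLE factors), -0.012 (upper quartile factors), -0.041 (no filter), -0.021 (24 libraries), -0.0085 (DESeq2 with block), -0.015 to 0.018 (replicate left out) and -0.040 (replicates 4 and 5). BBC3 was 1.10 without replicates 4 and 5, 1.08 with the block as well, and 0.89 and 0.85 with LCL521. CFLAR was -0.017 and ATF3 -0.41 in replicates 4 and 5 alone. The cause was not tested. BMF under LCL521 in PGCC had no adjusted p in DESeq2 with the block. Depth limits BCL2A1, with 0 to 6 counts per library.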

Other observations

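Over the 24 libraries, the genes whose log2 CPM was most like that of PMAIP1 were MMP13, LIF, SYTL2, APOLD1 and C9orf84, with Pearson's r from 0.97 to 0.98. The libraries form groups by population and by replicates 4 and 5, which all these genes share, so r mostly describes those groups. Over deviations from the condition means, which keep the gap of replicates 4 and 5, r was 0.86 to 0.91. For BCL2L11 they were ATXN7L3, ZBTB7A, PDCD7, IER5L and TFAP4, with r from 0.94 to 0.96 over all libraries and 0.49 to 0.73 over deviations from the condition means. Among the 9 members themselves, the deviations of PMAIP1 and MCL1 had r = 0.86, those of PMAIP1 and BBC3 0.83, and those of BAK1 and BID 0.81, while BCL2 and BAX had r = -0.62 (24 libraries). These pairs were picked as the extremes of 36, and the first of them share the gap of replicates 4 and 5.

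Genes that overlap members hold few counts. On the opposite strand of BCL2L1, RP11-243J16.7 had 0 to 8 counts per library and AL160175.1 0 to 3, and within BCL2, RP11-28F1.2 had 0 to 4 and RP11-299P2.1 had 0.

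With the replicate block, 4 of 14 NF-kappaB targets were lower with LCL521 in PGCC, beside 0.572% of all genes, and none was higher. They were CCL20 (log2 fold change -0.57, adjusted p = 0.00068), IL8 (-0.39, adjusted p = 2.2e-05), BIRC3 (-0.31, adjusted p = 0.021) and NFKBIA (-0.28, adjusted p = 0.0011). None passed in parental cells, and the difference between the populations was not tested for this list. FBXO32, a FOXO target and ubiquitin ligase, was higher with LCL521 in PGCC (0.48, adjusted p = 0.00018) and in parental cells (0.55, adjusted p = 0.0065), and GDF15, a stress cytokine and p53 target, in both as well (0.31, adjusted p = 0.0014, and 0.34, adjusted p = 0.039; edgeR with the block throughout). Without the block none of these passed. These genes were named after their values were seen.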
